A study of Rattus norvegicus with 18 samples.

Results

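Glycolysis genes were examined in RNA-Seq data of rat lungs exposed to multi-walled carbon nanotubes (MWCNT). The group was a list of 10 symbols: Slc2a1, Hk2, Hk3, Pfkp, Aldoa, Gapdh, Pgk1, Eno1, Pkm and Ldha. Of the 22081 genes in the deposited tables, 9 carried one of these symbols as their name, and no gene was named Gapdh. All 9 passed the filter on low counts. The entry at the chromosomal position of Gapdh was therefore followed under its own name, LOC108351137_1, beside the 9 named genes.

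The animals were 18 male F344 rats, an inbred strain. Control rats received the vehicle, saline with Tween 80, and MWCNT-treated rats received MWNT-7, a type of MWCNT with mostly straight fibers, at 0.5 mg/kg by intratracheal instillation every 4 weeks from 9 weeks of age. Lungs were taken after 0.5, 1, or 2 years of dosing (Year 0.5, 1, and 2), and each time point had 3 control rats and 3 rats given MWCNT. Each sample was a small piece of the accessory lobe, without a tumor nodule seen at necropsy. Time point, age, and the number of doses cannot be told apart. The piece held many cell types, so for every level given here, fewer cells of a type and less RNA per cell cannot be told apart.

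Glycolysis converts glucose to pyruvate in the cytosol, and lactate dehydrogenase can reduce the pyruvate to lactate. Glucose enters through transporters such as Slc2a1, hexokinases trap it as glucose 6-phosphate, and phosphofructokinase commits it to the pathway. Aldolase splits the sugar, and Gapdh, Pgk1, Eno1 and Pkm act on the resulting triose products, yielding ATP and NADH. In the lung, macrophages, alveolar epithelial cells, and dividing cells all use the pathway. Gapdh is also widely used as a reference gene for qRT-PCR, on the premise that its level differs little between samples, and it was the reference gene of the qRT-PCR in this study.

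The entry taken for Gapdh, LOC108351137_1 (ENSRNOG00000018630), lies on chromosome 4 from 157676595 to 157679962 on the minus strand of Rnor_6.0. It was the 1 entry between Iffo1 and Ncapd2, which are the neighbours of Gapdh in RefSeq. A second entry with the same name stem, LOC108351137_2 (ENSRNOG00000030963), lies on chromosome 5 from 115649046 to 115650340 on the plus strand as a single interval. RefSeq lists 91 Gapdh pseudogenes and Gapdh-like genes in the rat, and reads of near-identical copies could have been divided between entries. LOC108351137_1 held 56.3% to 65.2% of the summed TPM of both entries in each rat, so levels at the Gapdh position are uncertain. TPM is a measure of transcript abundance scaled to gene length, and all levels compared between genes are on this scale.

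The primers with which the study measured Gapdh by qRT-PCR are shown because several results below are expressed relative to the entry at the Gapdh position. The primers were not matched to either entry.

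Gapdh forward: ctggagaaacctgccaagtatg

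Gapdh reverse: ggtggaagaatgggagttgct

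The 130 bases before the RefSeq start (build GRCr8) are shown for the 3 members with the largest folds and for Gapdh and Ldha. Several glycolysis genes are known targets of hypoxia-inducible factor, so the letters it binds are marked. Capitals mark ACGTG or GCGTG on either strand, the core letters of its binding site.

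Slc2a1, chr5:138002392-138002521, strand +: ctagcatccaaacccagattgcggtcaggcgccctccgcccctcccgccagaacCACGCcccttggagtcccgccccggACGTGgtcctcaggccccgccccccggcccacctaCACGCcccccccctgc

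Hk2, chr4:116841276-116841405, strand -: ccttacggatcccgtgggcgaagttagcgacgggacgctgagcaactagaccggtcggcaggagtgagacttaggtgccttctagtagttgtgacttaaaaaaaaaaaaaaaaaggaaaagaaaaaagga

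Hk3, chr17:9604901-9605030, strand +: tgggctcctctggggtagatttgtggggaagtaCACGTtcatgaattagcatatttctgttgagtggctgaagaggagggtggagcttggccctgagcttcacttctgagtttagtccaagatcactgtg

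Gapdh, chr4:159652468-159652597, strand -: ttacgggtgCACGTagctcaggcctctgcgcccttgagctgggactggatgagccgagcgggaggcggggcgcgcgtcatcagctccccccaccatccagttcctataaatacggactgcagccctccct

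Ldha, chr1:106507962-106508091, strand +: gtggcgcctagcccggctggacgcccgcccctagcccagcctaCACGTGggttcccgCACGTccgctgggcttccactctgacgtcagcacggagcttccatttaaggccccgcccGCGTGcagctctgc

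Within 250 bases before the start, 7 of the 9 members with a RefSeq promoter held ACGTG or GCGTG, compared with 36.7% of all 33469 promoters. ACGTG was in 5 and GCGTG in 5 of the 9, against 16.6% and 25.9% of all promoters. Hk2 and Pkm held neither. The letters GAGGAA, found at binding sites of the macrophage factor PU.1, were in 3 of the 9 (23.3% of all promoters) and not in the window of Hk3. Pgk1 had no entry. Aldoa had 3 starts and Eno1 had 2, and each gene was counted once, as holding the letters if any start did. The shares of all promoters count every start by itself, so these 2 members had more chances of a match. Aldoa held ACGTG at a single start and GAGGAA at another. A match is a description of the letters, not of binding.

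Total counts ranged from 13297643 to 21130757 per rat. Macrophage markers were higher in the MWCNT-treated lungs in all 8 of 8 genes at each time point. Their summed TPM ranged from 327 to 423 in control rats and from 842 to 1205 in MWCNT-treated rats, and none of the 8 was at 0. The 6 alveolar type 2 markers were also higher at each time point, from 27306 to 36010 in control rats and from 50695 to 60269 in MWCNT-treated rats. The 5 proliferation markers were higher at each time point, with summed TPM from 20.1 to 32.0 in control rats and from 41.4 to 67.3 in MWCNT-treated rats. Of the 4 tested neutrophil markers, 1, 2 and 2 were higher, S100a9 at each time point (1.39, 2.36 and 2.21) and S100a8 at Year 1 and Year 2. Alveolar type 1, endothelial, and red blood cell markers were lower. Of 3 tested airway markers, 2, 3 and 2 were lower. Their summed TPM ranged from 18053 to 32795 in control rats and from 10464 to 15509 in MWCNT-treated rats. Fibroblast markers went in both directions. By the same FDR threshold of 0.05, 20.2%, 21.6% and 25.2% of all genes were higher and 18.6%, 19.6% and 24.0% were lower. The part of these shifts in the results below was not tested.

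All 9 named members were higher in MWCNT-treated rats at Year 0.5, 8 were higher at Year 1, and 9 at Year 2, and none was lower. These counts used edgeR's quasi-likelihood test with a Benjamini-Hochberg FDR under 0.05, by which 20.2%, 21.6% and 25.2% of all genes tested were higher. The median log2 fold change of the 9 was 0.70, 0.85 and 0.95, compared with -0.021, 0.00053 and -0.011 for all genes. Slc2a1, Hk2, and Hk3 exceeded a log2 fold change of 1 at each time point, a criterion met by 6.07%, 6.13% and 8.17% of genes in this direction. For Slc2a1 this depended on the scaling, with 0.96, 0.96 and 1.05 by library size alone. Over the alternative analyses, its lowest values were 0.91, 0.84 and 0.97, and Hk2 at Year 1 fell to 0.82. The TPM of all MWCNT-treated rats lay above that of all control rats for 8 of the 9 at each time point, against 17.0%, 15.0% and 18.1% of genes. The exceptions were Pgk1 at Year 0.5 and Pfkp at Year 1 and Year 2. The 10 entries together made up 0.221% to 0.260% of all TPM in control rats and 0.325% to 0.374% in MWCNT-treated rats.

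**Figure D1:**
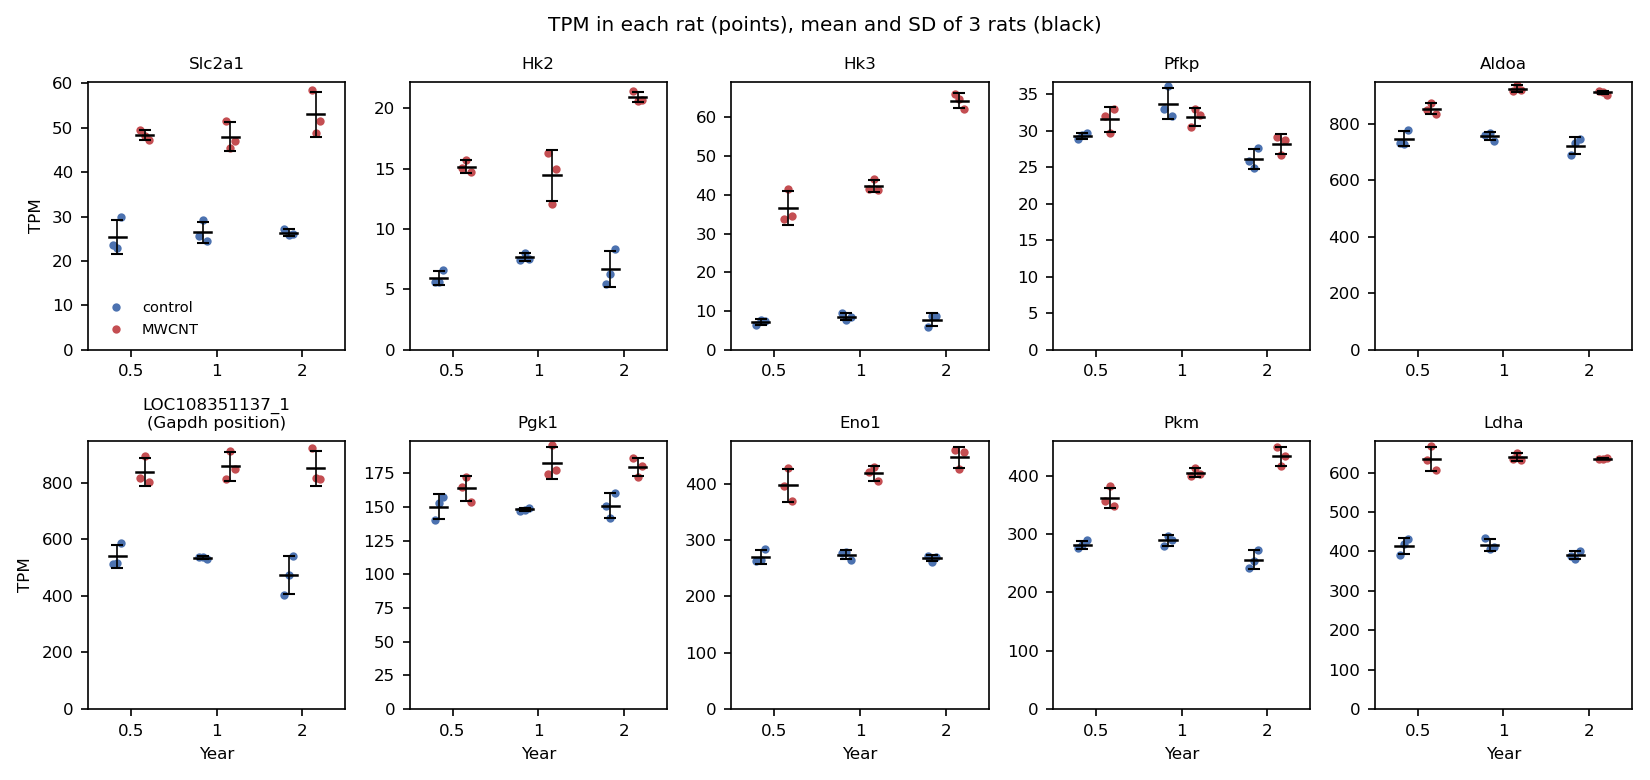
TPM (vertical axes, from 0) of the 9 named members and of the entry at the Gapdh position in each rat, by Year (horizontal axes), with control rats in blue, MWCNT-treated rats in red, and the mean and SD of 3 rats in black. Hk3 shows the widest gap, from 5.88 to 9.56 in control rats and from 33.7 to 65.9 in MWCNT-treated rats, whereas Pfkp overlaps at Year 1 and Year 2.

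Among the named members, Hk3, Hk2, and Slc2a1 had the largest log2 fold changes at each time point. Gene positions below are those of the deposited tables, on Rnor_6.0. The TPM of Slc2a1 in the 3 control rats was 23.6, 23.0 and 29.9 at Year 0.5, 25.7, 29.2 and 24.5 at Year 1, and 27.3, 25.9 and 26.1 at Year 2. The 3 rats given MWCNT had 49.6, 48.2 and 47.3, then 51.6, 45.5 and 47.1, and then 58.6, 48.9 and 51.6 at the same time points. The lowest MWCNT-treated rat was above the highest control rat at every time point. Slc2a1 (chromosome 5, 138154673 to 138182897), the basal glucose transporter, had log2 fold changes of 1.07, 1.10 and 1.22 in time order (SE 0.0995, 0.0865 and 0.0986, FDR 8.27e-05, 2.96e-05 and 1.41e-05). Control rats had Hk2 TPM values of 5.62, 5.62 and 6.60 at Year 0.5, 7.44, 8.05 and 7.50 at Year 1, and 5.45, 6.31 and 8.33 at Year 2. MWCNT-treated rats had 15.0, 15.7 and 14.8, then 16.2, 12.1 and 15.0, and then 21.4, 20.6 and 20.7 at the same time points. No control rat reached the lowest MWCNT-treated value. Hk2 (chromosome 4, 113559427 to 113610243), the insulin-responsive hexokinase that can bind mitochondria, had log2 fold changes of 1.497, 1.14 and 1.86 in time order (SE 0.0894, 0.0992 and 0.13, FDR 9.96e-06, 4.79e-05 and 5.35e-06). For Hk3, the control TPM values were 6.31, 7.74 and 7.43 at Year 0.5, 9.56, 7.78 and 8.41 at Year 1, and 5.88, 8.80 and 8.62 at Year 2. The MWCNT-treated values were 33.7, 41.6 and 34.6, then 41.5, 44.1 and 41.2, and then 65.9, 64.7 and 62.1 at the same time points. The control and MWCNT-treated ranges were far apart, and the MWCNT-treated rats of Year 2 were above those of both earlier time points. Hk3 (chromosome 17, 10137974 to 10152956), the hexokinase typical of myeloid cells, had the largest change of the members, with log2 fold changes of 2.51, 2.54 and 3.27 in time order (SE 0.12, 0.11 and 0.12, FDR 4.92e-06, 2.21e-06 and 2.98e-07). The gene whose log2 CPM lay nearest to that of Hk3 over the 18 rats was Cd68, a lysosomal macrophage marker. The root mean square difference of their centred values was 0.16, compared with an SD of 1.46 for Hk3 itself.

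Pfkp, Aldoa, and Pgk1 had the smallest log2 fold changes of the named members at each time point. TPM values of Pfkp in control rats were 28.8, 29.4 and 29.7 at Year 0.5, 33.0, 36.2 and 32.1 at Year 1, and 25.8, 24.9 and 27.7 at Year 2. The values in MWCNT-treated rats were 32.1, 29.7 and 33.0, then 30.6, 33.0 and 32.2, and then 29.1, 26.6 and 28.8 at the same time points. The ranges touched without overlapping at Year 0.5 and overlapped at Year 1 and Year 2. At Year 1, the mean TPM was 33.7 in control rats and 31.9 in MWCNT-treated rats, the opposite direction to the fit on counts, which did not pass the test. Pfkp (chromosome 17, 68511064 to 68559471), the platelet-type phosphofructokinase, had log2 fold changes of 0.25, 0.16 and 0.32 in time order (SE 0.0693, 0.0902 and 0.0864, FDR 0.0198, 0.187 and 0.0127). With scaling by library size alone, in which the median of all genes moved by -0.10, -0.13 and -0.17, the calls at Year 0.5 and Year 2 were lost. Levels of Aldoa in the control rats were 733, 729 and 779 at Year 0.5, 759.9, 768 and 740.2 at Year 1, and 689, 732 and 746 at Year 2. The 3 rats given MWCNT had 849.9, 874 and 836, then 915, 937 and 919.9, and then 916, 914 and 903 at the same time points. MWCNT-treated rats were above control rats at every time point, by less than for the hexokinases. Aldoa (chromosome 1, 198228387 to 198233588), the main aldolase of the tissue, had log2 fold changes of 0.34, 0.53 and 0.55 at the 3 time points. Pgk1 was measured in control rats at TPM values of 139.9, 153 and 157 at Year 0.5, 147, 148 and 149 at Year 1, and 151, 142 and 160.0 at Year 2. MWCNT-treated rats had 165, 172 and 154, then 174, 196 and 177, and then 186, 172 and 180.1 at the same time points. The lowest treated rat of Year 0.5 lay below the highest control rat, and the later time points did not overlap. Pgk1 (chromosome X, 77263359 to 77279367), which makes the first ATP of the pathway, had log2 fold changes of 0.27, 0.54 and 0.47 in time order (SE 0.0740, 0.0893 and 0.0767, FDR 0.019, 0.00161 and 0.000958). The Pgk1 call at Year 0.5 was lost with library size alone, at a log2 fold change of 0.17, and without control rat 1 or MWCNT-treated rats 1 or 2. The Pfkp calls were lost without rat 1 of either group at Year 0.5, and without control rat 2 or MWCNT-treated rat 1 at Year 2.

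The entry at the Gapdh position was higher by an amount near those of Eno1 and Ldha, and by more than Pgk1 at each time point. In control rats, LOC108351137_1 had TPM values of 514, 518 and 585 at Year 0.5, 536, 538 and 529.6 at Year 1, and 404, 474 and 540.1 at Year 2. The MWCNT-treated values were 816, 896 and 804, then 812, 912 and 847, and then 922, 815 and 813 at the same time points. All MWCNT-treated rats were above all control rats, and among control groups the rats of Year 2 were the most spread. Log2 fold changes were 0.78, 0.92 and 1.07 in time order (SE 0.0781, 0.0896 and 0.11, FDR 0.000122, 9.67e-05 and 4.49e-05). LOC108351137_2 ranged from 286 to 322 TPM in control rats and from 444 to 535 TPM in MWCNT-treated rats, and its log2 fold changes were 0.72, 0.93 and 0.95. With the counts of both entries added, the log2 fold changes were 0.76, 0.92 and 1.01, with FDR values of 0.000103, 0.000112 and 1.51e-05.

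Enolase, pyruvate kinase, and lactate dehydrogenase were all higher. The TPM of Eno1 in the 3 control rats was 263, 264 and 285 at Year 0.5, 277, 279 and 265 at Year 1, and 272, 261 and 270.3 at Year 2. The values in MWCNT-treated rats were 396, 428 and 369, then 421, 429.6 and 404, and then 460.0, 426 and 456 at the same time points. The groups did not overlap. Eno1 (chromosome 5, 167288223 to 167299609), which forms phosphoenolpyruvate, had log2 fold changes of 0.70, 0.85 and 0.95 at the 3 time points. Control rats had Pkm TPM values of 275, 280.5 and 289 at Year 0.5, 279.6, 297 and 289.9 at Year 1, and 241, 253 and 273 at Year 2. The 3 rats given MWCNT had 357, 381 and 348, then 399, 413 and 403, and then 449, 416 and 433 at the same time points. The MWCNT-treated ranges of the 3 time points did not overlap with each other or with any control range. Pkm (chromosome 8, 64481172 to 64502722), which makes pyruvate and ATP, had log2 fold changes of 0.51, 0.73 and 0.98 in time order (SE 0.0654, 0.0754 and 0.0760, FDR 0.000453, 0.000133 and 1.11e-05). The tables give 1 value per gene, so its M1 and M2 isoforms were not separated. For Ldha, the control TPM values were 390.1, 419.8 and 430.4 at Year 0.5, 433, 405 and 411 at Year 1, and 389, 381 and 401 at Year 2. MWCNT-treated rats had 633, 666 and 605, then 635, 649.7 and 632, and then 635, 633 and 637 at the same time points. The 9 MWCNT-treated rats lay within 605 to 666 TPM, above all 9 control rats. Ldha (chromosome 1, 102900286 to 102909707), the subunit that favours lactate formation, had log2 fold changes of 0.76, 0.85 and 0.92. The FDR of Eno1, Ldha and Aldoa ranged from 1.04e-05 (Ldha, Year 2) to 0.00288 (Aldoa, Year 0.5).

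**Figure D2:**
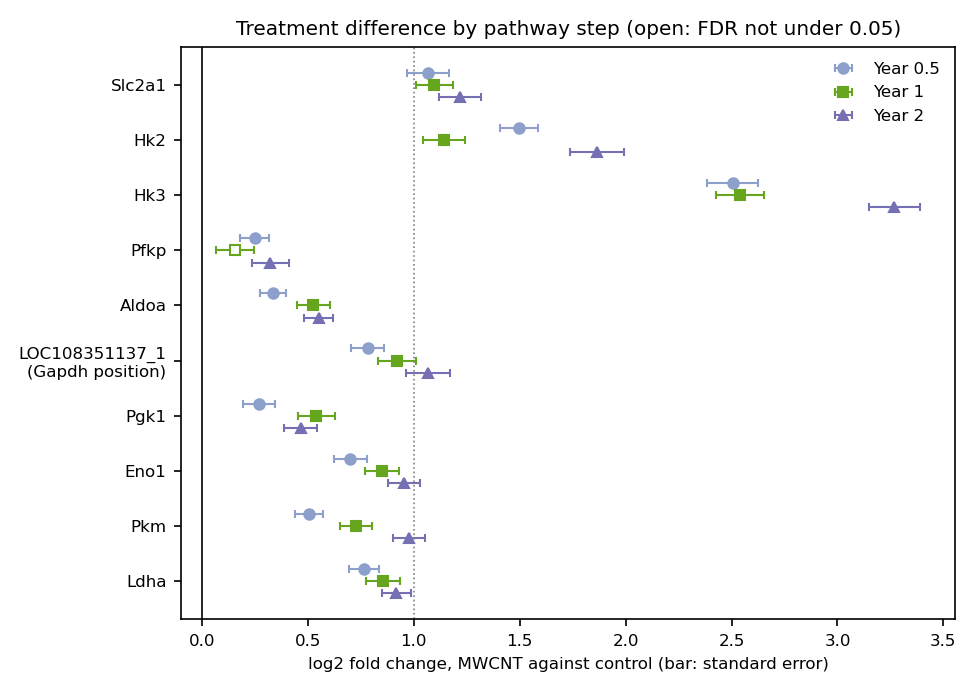
Log2 fold change of MWCNT-treated against control rats (horizontal axis, bars are the standard error, 3 rats per group) for each member in pathway order, with 1 symbol per time point and open symbols where the FDR was not under 0.05. Hk3 lies farthest to the right at 2.51, 2.54 and 3.27, Pfkp lies nearest to 0, and the dotted line marks a log2 fold change of 1.

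The size of the difference itself was compared between time points in a model of all 18 rats. From Year 0.5 to Year 2, the treatment difference of Hk3 grew by 0.77 (SE 0.18, FDR 0.0480) and that of Pkm by 0.48 (SE 0.091, FDR 0.0192), by edgeR's quasi-likelihood test, whereas 0.856% of all genes had such an increase. When each rat was left out in turn, the Hk3 increase ranged from 0.63 to 0.89. It stayed under the FDR threshold only without control rat 1 of Year 1, control rat 3 of Year 2, MWCNT-treated rat 2 of Year 0.5, or MWCNT-treated rat 2 of Year 1. The Pkm increase missed it without control rat 2 of Year 2, MWCNT-treated rats 1 or 3 of Year 0.5, or MWCNT-treated rat 1 of Year 2. For the other 7 named members, the FDR lay between 0.218 and 0.806. From Year 0.5 to Year 1, no member and 0% of all genes passed the test, although 1260 genes had an unadjusted p under 0.05.

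Within the MWCNT-treated rats, Hk3 (log2 fold change 0.89, FDR 0.000133), Hk2 (0.55, FDR 0.00276), Pkm (0.34, FDR 0.00210), Eno1 (0.25, FDR 0.0307), and Aldoa (0.18, FDR 0.0478) were higher at Year 2 than at Year 0.5 by the same edgeR test. Of all genes, 6.65% were higher and 6.87% were lower in this comparison. The calls of Aldoa and Eno1 depended on the processing. That of Aldoa was lost in 9 of 10 alternative analyses, and that of Eno1 in 5 of 10. Aldoa also missed the threshold in 15 of the 18 fits that left out 1 rat. Eno1 missed the threshold without MWCNT-treated rats 1 or 3 of Year 0.5 or of Year 2. Slc2a1, Pfkp, Pgk1, Ldha, and LOC108351137_1 had log2 differences of 0.22, -0.078, 0.22, 0.085 and 0.10, with FDR values from 0.0826 to 0.550. In control rats, no member passed the test at Year 2, when 2.65% of all genes were higher and 4.00% lower than at Year 0.5. The largest difference among the members there was that of LOC108351137_1, -0.19 (FDR 0.249).

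Across the 6 groups, the 3 MWCNT-treated means of every member except Pfkp were above the 3 control means. For Hk3 and Hk2, the mean of MWCNT-treated rats at Year 2 stood highest and apart from the next group, while the Year 0.5 and Year 1 ranges overlapped. For Aldoa and Pgk1, the Year 1 and Year 2 ranges overlapped and were apart from that of Year 0.5. For Pkm, all 3 were apart. For Slc2a1, Eno1, Ldha, and LOC108351137_1, the 3 MWCNT-treated groups overlapped with their neighbours in the order. The Pfkp order began with the control rats of Year 1 at a mean of 33.7 TPM, and its only neighbouring groups apart were the MWCNT-treated and control rats of Year 0.5. Among the control groups, neighbours in this order were apart only for Pkm, at 282 TPM for Year 0.5 and 256 TPM for Year 2. The Pfkp control ranges were also apart from each other, but MWCNT-treated groups stood between them in the order. These control ranges were 32.1 to 36.2 TPM at Year 1, 28.8 to 29.7 at Year 0.5, and 24.9 to 27.7 at Year 2.

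Isoforms of the same step did not move together. Hk1, the housekeeping hexokinase, had log2 fold changes of 0.09, -0.00 and 0.17 and passed no test. Its share of the summed TPM of Hk1, Hk2, and Hk3 ranged from 66.7% to 75.7% in control rats. In MWCNT-treated rats, this share was 37.8% to 43.5% at Year 0.5, 35.3% to 41.0% at Year 1, and 26.6% to 29.8% at Year 2. Hk3 made up 12.7% to 17.7% in control rats and 52.7% to 55.7% in MWCNT-treated rats of Year 2, when the mean of Hk1 was 34.7 TPM in control rats and 33.5 TPM in MWCNT-treated rats. At the phosphofructokinase step, Pfkl had log2 fold changes of 0.07, 0.02 and -0.01 and passed no test, whereas the muscle type Pfkm was lower at each time point (-0.70, -0.53 and -0.76). At the enolase step, the neuronal type Eno2 was higher (2.26, 1.04 and 2.03), and the muscle type Eno3 was lower at Year 1 and Year 2 (-0.35, -0.44 and -0.92). Eno2 made up no more than 5.4% of the summed TPM of Eno1, Eno2, and Eno3 in any rat. At Year 1 its TPM ranges overlapped, from 5.09 to 7.36 in control rats and from 7.22 to 14.7 in MWCNT-treated rats. Ldhb, the subunit typical of oxidative tissue, was lower at Year 0.5 and Year 2 (-0.48, -0.18 and -0.57). The Ldha share of Ldha and Ldhb was 77.2% to 81.1% in control rats and 88.3% to 91.1% in MWCNT-treated rats. The choice of these shares followed the values, so they are a description without a test.

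**Figure D3:**
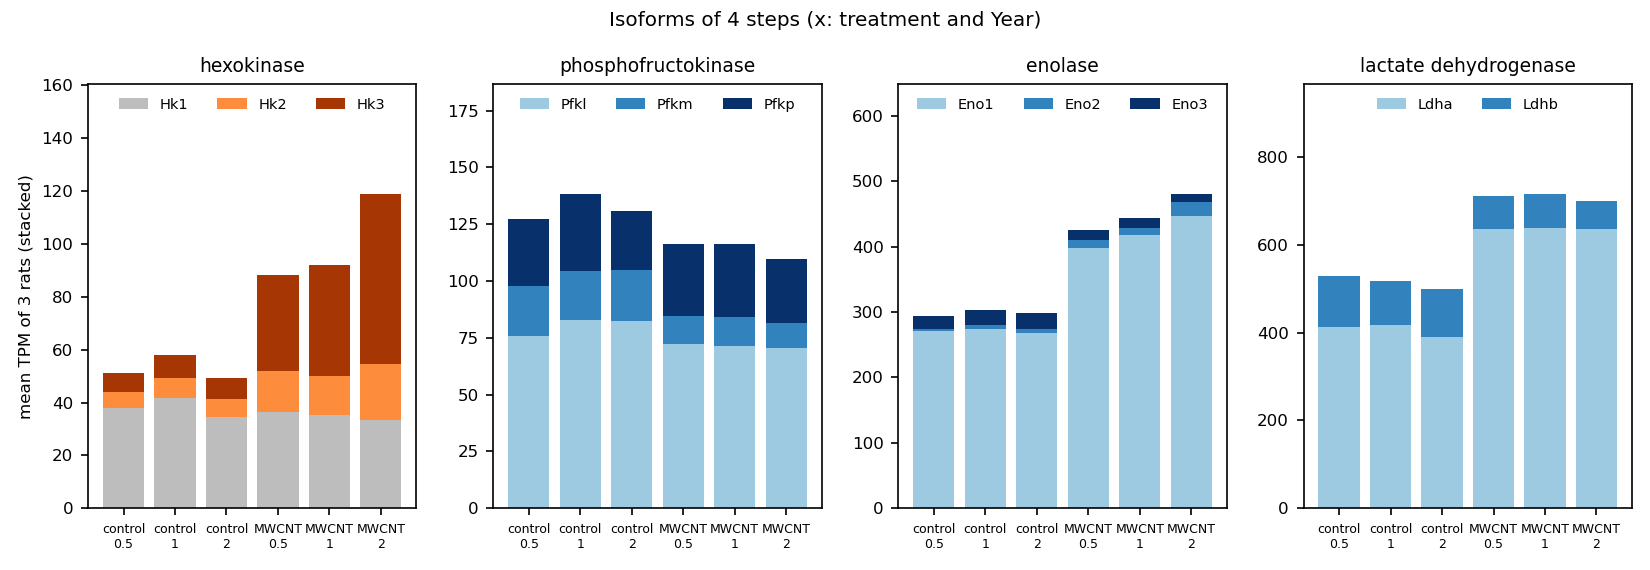
Mean TPM of 3 rats (vertical axes, from 0, stacked) for the isoforms of hexokinase, phosphofructokinase, enolase, and lactate dehydrogenase in the 6 groups of treatment and Year. The Hk1 segment stays between 33.5 and 41.6 TPM while Hk3 grows to 64.3 TPM in MWCNT-treated rats of Year 2, and the Ldhb segment is smaller in MWCNT-treated rats.

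Of 26 further glucose uptake and glycolysis genes, 20 were tested, and they moved in both directions. Higher genes numbered 5, 5 and 6, and lower genes 3, 6 and 5, at the 3 time points. The shares of all genes were 20.2%, 21.6% and 25.2% higher, and 18.6%, 19.6% and 24.0% lower. The median log2 fold changes of the 20 tested genes were -0.00093, -0.0022 and 0.076. The genes higher at each time point were the transporter Slc2a6 (0.66, 0.65 and 1.01), the triose isomerase Tpi1 (0.27, 0.50 and 0.43), the mutase Pgam1 (0.36, 0.48 and 0.51), Eno2, and Pfkfb2 (1.16, 0.98 and 1.34), which sets the level of a phosphofructokinase activator. Pfkm and Eno4 were lower at each time point. Slc2a4, the insulin-dependent transporter, was lower at Year 0.5, Pfkfb1 at Year 1, Bpgm at Year 2, and the muscle types Pgam2 and Eno3 at Year 1 and Year 2. Gpi was higher at Year 2. When 1 rat was left out, the number of calls fell from 8 to 5 at Year 0.5 (control rat 1 or MWCNT-treated rat 2) and from 11 to 7 at Year 1 (control rat 2 or MWCNT-treated rat 1). Heart muscle markers were lower in 6 of 7 tested genes at Year 0.5, and in 2 of 7 and 1 of 6 at the later time points. These later shares were nearer to those of all genes, but the median log2 fold change of the heart muscle markers remained negative, at -1.62, -1.38 and -1.87. Their summed TPM ranged from 73.3 to 674 in control rats and from 15.8 to 203 in MWCNT-treated rats. Of 4 tested skeletal muscle markers, 2 were higher at each time point, Acta1 (1.68, 2.74 and 2.54) and Myh4 (0.91, 1.41 and 0.88), and Ckm was lower at Year 0.5. Their summed TPM ranged from 11.2 to 30.4 in control rats and from 9.59 to 18.02 in MWCNT-treated rats. The part of muscle in these differences was not tested. Slc2a3 had 0 counts in every rat, and Hkdc1 was not analysed here.

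The branches around glycolysis differed. For comparison, 20.2%, 21.6% and 25.2% of all genes were higher at the 3 time points, and 18.6%, 19.6% and 24.0% were lower. Among 12 tested lactate and pyruvate genes, 4, 4 and 5 were higher and 1 was lower at each time point, with medians of 0.08, 0.16 and 0.09. The lactate transporters Slc16a1 (1.10, 0.97 and 1.17) and Slc16a3 (1.42, 1.78 and 1.92), the mitochondrial pyruvate carrier subunit Mpc1 (0.31, 0.56 and 0.37), and the pyruvate dehydrogenase phosphatase Pdp1 (0.38, 0.47 and 0.71) were higher at each time point. Pdk4, a pyruvate dehydrogenase kinase, was higher at Year 2. The lower gene was Ldhb at Year 0.5 and Year 2 and Pdha1, a pyruvate dehydrogenase subunit, at Year 1. In the pentose phosphate pathway, which supplies NADPH, 6 of 6 tested genes were higher at Year 0.5, and 5 of 6 at Year 1 and Year 2, with medians of 0.42, 0.56 and 0.63. With limma on TPM, 3 of these genes passed at Year 1 and at Year 2, and with library size only 3 passed at Year 2. Tkt (0.48, 0.70 and 0.81), Taldo1 (0.62, 0.76 and 0.80), Pgls (0.36, 0.42 and 0.46) and Rpe (0.31, 0.36 and 0.37) were among those higher at all 3 time points. Of the tested gluconeogenesis genes, 4 of 6, 4 of 6 and 4 of 5 were higher and 1 was lower at each time point, with medians of 0.30, 0.53 and 0.39. The higher genes were Pc, Pck2 (0.63, 0.77 and 0.81), Fbp2 (0.94, 1.18 and 1.47) and G6pc3, and the lower gene was Fbp1 (-1.61, -1.51 and -1.69). The 5 calls at Year 0.5 fell to 3 with library size only or limma on TPM. They fell to 2 without control rat 1 or MWCNT-treated rat 2, and to 3 without control rat 2. At Year 1 they fell to 3 with limma, without control rat 2, or without MWCNT-treated rat 1, and at Year 2 to 3 with limma.

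Among 11 tested hypoxia-inducible genes outside glycolysis, 2, 2 and 3 were higher and 4, 2 and 3 were lower, with medians of -0.25, -0.19 and -0.09. Apart from the lower genes at Year 0.5, these shares were near the 20.2%, 21.6% and 25.2% of all genes that were higher and the 18.6%, 19.6% and 24.0% that were lower. The 4 calls at Year 1 were 7 with library size only and 7 or 8 with limma on TPM. Ndrg1 (1.10, 1.26 and 2.06) and Angptl4 (0.68, 0.54 and 1.42) were higher at each time point. Vegfa (-0.87, -0.77 and -1.45), an endothelial growth factor, and Bnip3 (-0.48, -0.47 and -0.66), a mitophagy receptor, were lower throughout. P4ha1 was higher at Year 2, Egln1 was lower at Year 0.5 and Year 2, and Kdm3a at Year 0.5. Endothelial markers were lower in 4 of 4 tested genes at each time point, and alveolar type 1 markers in 5, 4 and 5 of 5. Their summed TPM ranged from 1771 to 2335 in control rats and 575 to 1305 in MWCNT-treated rats for the former, and from 4335 to 5120 and 2314 to 3357 for the latter. The part of these cell types in the result was not tested.

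As a reference gene, the entry at the Gapdh position was among the least even. The SD of its log2 CPM over the 18 rats was 0.49, compared with a median of 0.26 over 14843 genes, and it ranked 16 of 17 when placed among 16 other reference genes. Sdha was the most even (SD 0.064), and the SD was larger for Polr2a (0.12), Ywhaz (0.14), B2m (0.15), Rplp0 (0.17), Tbp (0.17), Rpl13a (0.18), Rps18 (0.19), Ppia (0.20), Ppib (0.22), Actb (0.27), Hprt1 (0.30) and Tfrc (0.39). Gusb, a lysosomal enzyme, was the least even (0.79). Of the 16, 7, 8 and 10 were higher and 0, 0 and 1 were lower at the 3 time points, with medians of 0.13, 0.31 and 0.35. Among all genes, 20.2%, 21.6% and 25.2% were higher and 18.6%, 19.6% and 24.0% were lower. Gusb, Actb, Hprt1, Ppia, Tfrc, and Ppib were among those higher at each time point. Sdha, B2m, Tbp, Rps18, and Polr2a did not pass the test at any time point. The lower gene at Year 2 was Rpl13a, and Ywhaz passed at 2 time points and Rplp0 at 1.

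**Figure D4:**
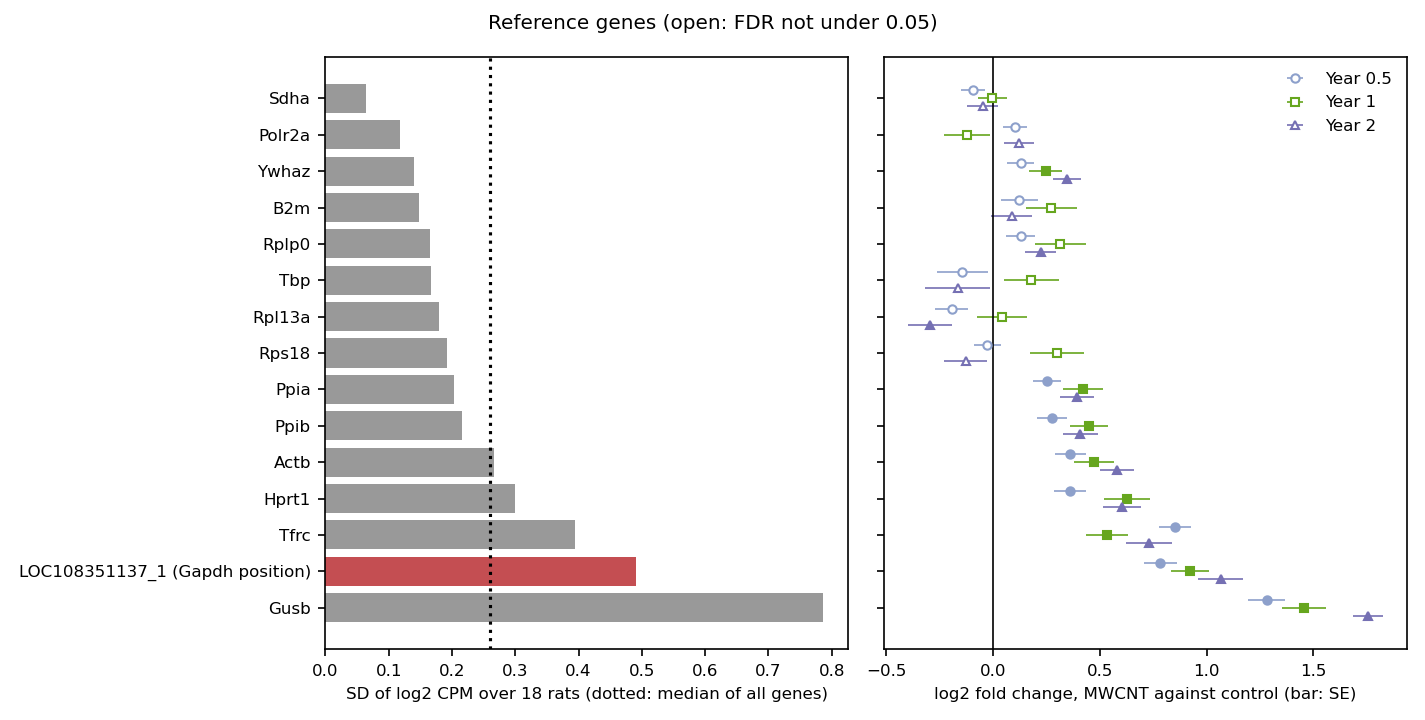
Left, SD of log2 CPM over 18 rats (horizontal axis, from 0) for 14 of the 16 reference genes and the entry at the Gapdh position (red), with the median of all genes dotted. Right, log2 fold change of MWCNT-treated against control rats with its standard error at each Year, with open symbols where the FDR was not under 0.05, showing Sdha near 0 and LOC108351137_1 at 0.78, 0.92 and 1.07.

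Expressed relative to the entry at the Gapdh position, 4 members were lower and 3 were higher in MWCNT-treated rats. This is a ratio of TPM values and not the scale of the study's qRT-PCR. According to the paper, the qRT-PCR of its selected genes matched its RNA-Seq data. The log2 TPM of the reference entry itself was higher by 0.72 in MWCNT-treated rats, averaged over the 3 time points. A gene with unchanged TPM would therefore come out lower by 0.72 on this scale. Only the 9 members were tested on it, so the counts have no share of all genes beside them. Relative to it, Hk3 was higher by 1.85, Hk2 by 0.58, and Slc2a1 by 0.21, with adjusted p values of 0.000563, 0.00150 and 0.0116. In contrast, Pfkp differed by -0.68, Pgk1 by -0.50, Aldoa by -0.45, and Pkm by -0.19, with adjusted p values of 0.000563 for the first 3 and 0.00150 for Pkm. Eno1 (-0.089, adjusted p = 0.0554) and Ldha (-0.077, adjusted p = 0.107) did not pass. These values come from a two-sided exact permutation test in which treatment was exchanged within each time point, over 8000 arrangements, whose smallest p is 0.00025, adjusted over 9 members. Within 1 time point, 3 against 3 rats cannot give a p below 0.10.

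Relative to the mean log2 TPM of the 16 reference genes, which differed by 0.12 between treatments, Aldoa was higher by 0.15, Pgk1 by 0.11, Eno1 by 0.52, Pkm by 0.42, and Ldha by 0.53. The adjusted p values of the same exact permutation test were between 0.000375 and 0.00703 for these 5. Pfkp differed by -0.074 (adjusted p = 0.10). Hk3, Hk2 and Slc2a1 were higher by 2.46, 1.19 and 0.81. The direction of Aldoa, Pgk1, Eno1, Pkm, and Ldha thus depended on the reference. With the TPM of both Gapdh-stem entries added as the reference, all 9 directions were those found with 1 entry, and Eno1 passed the test at -0.065 (adjusted p = 0.0402).

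**Figure D5:**
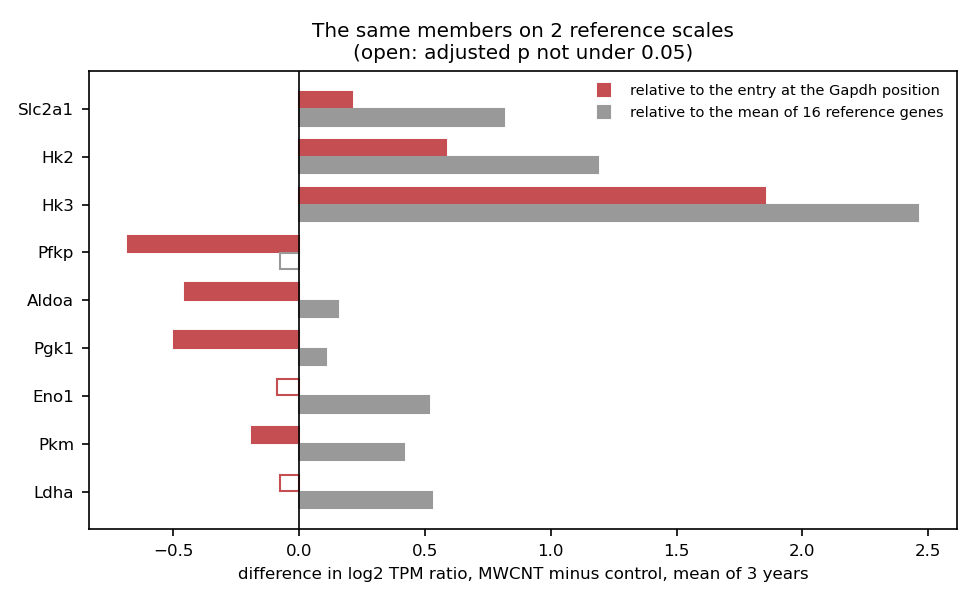
Difference in log2 TPM ratio between MWCNT-treated and control rats (horizontal axis, mean of 3 time points, 18 rats) for the 9 named members, relative to the entry at the Gapdh position (red) or to the mean of 16 reference genes (grey), with open bars where the adjusted p was not under 0.05. Slc2a1, Hk2, and Hk3 point right on both scales, whereas Aldoa, Pgk1, and Pkm point left on the first scale and right on the second.

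The genes that lay nearest to each member over the 18 rats were found among 14843 genes by the root mean square difference of centred log2 CPM. For LOC108351137_1 they were Vim (0.082), an intermediate filament gene, Rragc (0.083), Pdhx (0.085), Man2b2 (0.085) and Mfsd1 (0.088). For Aldoa (0.047) and Pgk1 (0.054), the nearest gene was Pgam1, the glycolytic mutase. For Eno1 it was LOC108351137_2 (0.051). For the remaining members it was Tbc1d9 for Slc2a1 (0.12), Slc7a5, an amino acid transporter, for Hk2 (0.13), Tmbim6 for Pfkp (0.067), P4hb for Pkm (0.062), and Slc43a2 for Ldha (0.072). All 18 rats of both treatments enter these values.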

How the data were processed

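The authors aligned the reads with CLC Genomics Workbench and deposited, for each of 18 rats, a count of reads per gene and a TPM value. The submitters' processing notes name Rnor_6.0 (rn6). How reads of near-identical copies were assigned is not given in the sources used here. RPKM, TMM-adjusted CPM, and the authors' own fold changes and p-values were not used. Groups came from the sample titles.

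Counts were tested with edgeR 4.0.16 in R 4.3.3 (filterByExpr, minimum count 10, minimum total count 15, TMM factors, quasi-likelihood test, Benjamini-Hochberg FDR over all genes tested), on the 6 rats of each time point for treatment and on all 18 rats for interaction and time. Standard errors were derived from the F statistic. Log2 CPM used a prior count of 2. TPM ratios were tested by exact permutation in Python 3.11.15. The alternatives were limma 3.58.1 on log2(TPM + 1) and log2(TPM + 0.1), DESeq2 1.42.0, other scalings and filters, a replicate block, and omission of each rat. The edgeR step was tested on simulated data of 14282 genes for Year 2. It recovered 22 of 100 genes changed by a log2 of 0.5 and 92 of 100 changed by a log2 of 1. The simulation gave all genes the same spread, not fitted to these rats, and changed few genes. These counts therefore do not measure what the test could find in the rats.

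The members and the gene lists were chosen with earlier results of these data known. The text names all members, the listed genes called in 1 direction at all 3 time points or needed to account for a list, all reference genes, and the nearest genes. Some genes that this rule covers are not reported here, although they remain in the counts and medians of their lists. Precision rests on 3 rats per group. Nothing in the sources pairs rats with the same replicate number: their deviations from the group means had a mean r of 0.0068 over 9 pairs.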

Additional observations from a re-analysis of the deposited data

Results flagged for a closer look

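The treatment difference of Hk3 was larger at Year 2 than at Year 0.5 by 0.77 on the log2 scale, and that of Pkm by 0.48, by the interaction term of the edgeR model of 18 rats (FDR 0.0480 and 0.0192). The Hk3 call was lost in 6 of 9 other settings and in 14 of the 18 fits that left out 1 rat, and the Pkm call in 1 of 9 and 4 of 18. In Hk3, the 3 MWCNT-treated rats had a mean of 36.6 TPM at Year 0.5 and 64.3 TPM at Year 2, compared with 7.16 and 7.77 TPM in control rats. In Pkm, the means were 362 and 433 TPM in MWCNT-treated rats and 282 and 256 TPM in control rats. The summed TPM of the macrophage markers was higher at Year 2 (1111 to 1205) than at Year 0.5 (842 to 995) in MWCNT-treated rats, and its part in the result was not tested.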

How the results depend on the processing

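Of 236 counts of members called, 207 stayed within 1.5 times their reported value and 29 fell below it. Of 2347 values of single members, 2252 kept the call or its absence, 78 lost the call, 10 gained it, and 7 reversed. Among the 2252 were 58 values that changed sign by less than their standard error and passed the test in neither fit. Of 288 counts of calls in the other gene lists, 259 stayed within 1.5 times, 26 fell below, and 3 rose above, most often for the gluconeogenesis genes. For Year 2 against Year 0.5, 2 members had a larger treatment difference. This count was 1 with no filter, library size only, upper quartile scaling, or limma on log2(TPM + 1) or log2(TPM + 0.1), where Hk3 was the member lost, 0 at an FDR under 0.01, and 0 to 3 with each rat left out. In MWCNT-treated rats, 5 members were higher at Year 2 than at Year 0.5, against 3 with no filter, either limma fit, an FDR under 0.01, or only the 9 rats of that treatment, and 3 to 6 with each rat left out. Pfkp at Year 1 reversed to -0.078 and -0.080 with limma on log2(TPM + 1) and log2(TPM + 0.1). Relative to the mean of the reference genes instead of the Gapdh position, Aldoa (0.15), Pgk1 (0.11), Eno1 (0.52), Pkm (0.42), and Ldha (0.53) reversed. The cause was not tested for any of these. With the replicate number as a replicate block, 9, 8 and 9 members were higher by treatment, 2 had the larger difference, and 4 instead of 5 were higher at Year 2 in MWCNT-treated rats. Correlations between same-numbered rats ranged from -0.15 to 0.11, and those between differently numbered rats from -0.16 to 0.16. The sources name no pairs, and 9 correlations are too few to show that none exist. No named member had further entries under the same name stem, so adding such entries could not be run. In simulated data of 14661 genes, the interaction test recovered 4 of 100 genes with a log2 change of 0.5. It recovered 57 of 100 with a log2 change of 1. The simulated spread was the same for all genes and was not fitted to these rats, and few genes were changed. What the test could miss here with 3 rats per group was therefore not measured.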
